A study of Mus musculus with 15 samples.

Results

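Cell cycle genes were followed in regulatory T cells (Tregs) of the skin and of the lymph nodes (LN). The 43 genes were chosen by name from a table of read counts for 24015 genes. They are 21 mitotic genes, 18 S-phase genes and 4 regulators of the G1 phase. All 43 passed the filter on low counts, which left 13578 genes to be tested. Mitotic and S-phase genes are given apart throughout.

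The cells came from C57BL/6 mice carrying Foxp3 cre-eyfp, an allele in which Foxp3, the gene of the Treg lineage factor, drives both Cre recombinase and a yellow fluorescent protein (YFP). All 5 groups carry that allele, and all were sorted as CD45+CD3+CD4+YFP+ cells. The groups are 3 libraries each of Rora fl/fl Tregs (here cKO) from MC903-treated ears, of wild-type (WT) Tregs without the floxed allele from MC903-treated ears, of cKO and of WT Tregs from untreated dorsal skin and ears, and of WT Tregs from axillary LN without treatment. MC903, a vitamin D analogue that inflames skin, was put on the ears in ethanol 4 times, and no vehicle group was used here. The ages and the number of mice behind a library are not given in the sources used here. Cre acts wherever Foxp3 is expressed, so the deletion is not limited to skin. The treated samples were ears alone and the untreated ones were dorsal skin with ears, so treatment and site cannot be told apart. LN were homogenised while skin went through a 90-minute digestion, so tissue and digestion cannot be told apart either.

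Total counts per library ran from 19.8 to 27.7 M. Foxp3 was read at 110.5 to 202 CPM (counts per TMM-scaled library size) in the 12 skin libraries, against 28.4, 16.2 and 41.8 CPM in LN. Rora, the floxed gene, was at 632, 492 and 473 CPM in cKO and 813, 739 and 812 CPM in WT MC903 skin, and at 822, 1074 and 1199 CPM in cKO and 1327, 1341 and 1510.1 CPM in WT untreated skin. Transcript therefore remained in every library labelled cKO, and the exons it came from cannot be read from gene counts. The p-values below measure the spread between these libraries. In RNA from many cells, fewer dividing cells and less RNA per cell cannot be told apart.

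A dividing cell passes through G1, copies its DNA in S phase, and separates the copies in mitosis. Transcription factors of the E2F family turn on many S-phase genes late in G1. Mitotic genes peak later in the cycle, and in mammals many of them are bound by the MuvB complex at a promoter element called CHR, often beside CCAAT boxes bound by NF-Y. Cyclin-dependent kinase inhibitors such as the product of Cdkn1a hold cells in G1, and they are also induced by stress without any change in division. Mki67 encodes Ki-67, the protein most often stained to count cycling T cells.

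The promoters of 6 genes are shown because Plk1 moved opposite to Kif23 and Cenpa, and all these mitotic genes hold the same elements. Not every mitotic gene that moved holds them, as given below. The S-phase genes Mcm5 and Pcna share CCAAT only, and Pcna lacks the E2F letters that Mcm5 holds. Plk1 was lower in skin than in LN, Ccnb2 passed no test, and Kif23, Cenpa and Pcna were higher in skin. Mcm5 was lower. Each sequence runs 5′ to 3′ along the gene's strand over 300 bases, from 250 before to 50 after the start, and comes from RefSeq on build GRCm38.p6. The counts were made on another build, mm9, so no coordinate is carried between them. Capitals mark the letters TTTGAA (CHR), CCAAT or the E2F letters named below, on either strand.
Plk1, chr7:122159185-122159484, plus strand: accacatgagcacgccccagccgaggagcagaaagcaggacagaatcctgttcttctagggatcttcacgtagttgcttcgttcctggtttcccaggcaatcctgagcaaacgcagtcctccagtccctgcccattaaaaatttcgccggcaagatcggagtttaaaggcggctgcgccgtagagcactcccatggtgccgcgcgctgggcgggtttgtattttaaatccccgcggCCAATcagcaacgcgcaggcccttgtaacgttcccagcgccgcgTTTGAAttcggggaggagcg
Ccnb2, chr9:70421505-70421804, minus strand: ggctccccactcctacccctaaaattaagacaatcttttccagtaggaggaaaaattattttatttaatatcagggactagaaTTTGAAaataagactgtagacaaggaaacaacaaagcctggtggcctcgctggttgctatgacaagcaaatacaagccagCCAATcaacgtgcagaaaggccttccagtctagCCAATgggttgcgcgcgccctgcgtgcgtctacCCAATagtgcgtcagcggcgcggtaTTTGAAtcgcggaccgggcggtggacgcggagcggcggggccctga
Kif23, chr9:61946750-61947049, minus strand: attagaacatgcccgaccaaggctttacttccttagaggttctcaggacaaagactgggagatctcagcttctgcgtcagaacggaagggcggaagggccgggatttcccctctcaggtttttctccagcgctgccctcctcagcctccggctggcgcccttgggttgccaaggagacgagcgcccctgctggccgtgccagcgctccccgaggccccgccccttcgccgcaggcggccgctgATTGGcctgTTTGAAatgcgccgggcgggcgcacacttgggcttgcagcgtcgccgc
Cenpa, chr5:30666636-30666935, plus strand: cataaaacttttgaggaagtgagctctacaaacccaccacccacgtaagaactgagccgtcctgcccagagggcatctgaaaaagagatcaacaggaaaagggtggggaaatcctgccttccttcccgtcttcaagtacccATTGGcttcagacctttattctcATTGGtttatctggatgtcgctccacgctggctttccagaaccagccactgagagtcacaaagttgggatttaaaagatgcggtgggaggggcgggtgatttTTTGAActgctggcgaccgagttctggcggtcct
Mcm5, chr8:75109259-75109558, plus strand: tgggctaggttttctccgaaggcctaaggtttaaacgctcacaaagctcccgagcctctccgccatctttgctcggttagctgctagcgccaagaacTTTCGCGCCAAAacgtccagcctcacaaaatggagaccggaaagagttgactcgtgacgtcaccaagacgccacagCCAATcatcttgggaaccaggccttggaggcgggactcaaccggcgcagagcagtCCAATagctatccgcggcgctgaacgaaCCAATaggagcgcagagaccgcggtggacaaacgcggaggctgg
Pcna, chr2:132253131-132253430, minus strand: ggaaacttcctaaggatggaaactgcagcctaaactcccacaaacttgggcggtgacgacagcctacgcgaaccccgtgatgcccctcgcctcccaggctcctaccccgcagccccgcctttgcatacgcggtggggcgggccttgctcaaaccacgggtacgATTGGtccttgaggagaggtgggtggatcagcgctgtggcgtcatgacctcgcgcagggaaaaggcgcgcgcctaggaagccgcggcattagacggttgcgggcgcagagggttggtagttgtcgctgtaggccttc

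A promoter was found for 35 of the 43 genes, and those of Tpx2, Aurkb, Gins2, Kif20a, Ccne2, Ccna2, Mcm4 and Ccnd2 were not in the table. E2f2, Mcm7, Ccnd3 and Cdkn1a had 2 promoter entries each. The 35 were counted by gene, with a match in any entry, whereas the share of all promoters is by entry. TTTGAA on either strand was present in 13 of 17 mitotic promoters (76.5%), in 2 of 15 S-phase promoters (13.3%) and in 17.9% of all 32851 promoters of that length. CCAAT was present in 16 of 17 mitotic promoters (94.1%), in 9 of 15 S-phase promoters (60%) and in 37.4% of all. An E2F site was counted where TTTCCCGC, TTTGGCGC, TTTCGCGC or TTTGCCGC occurred on either strand, and it was present in 1 of 17 mitotic promoters (5.88%), in 7 of 15 S-phase promoters (46.7%) and in 2.26% of all. In Mcm5 an E2F match on each strand overlaps the other, so they form 1 capital run. The E2F letters did not sort the called S-phase genes by direction in WT untreated skin against LN. Besides Mcm5 and Pcna, Cdt1 rose and Mcm3, Mcm7 and E2f2 fell with E2F letters. E2f1 rose and Mcm2, Tk1 and Tyms fell without them. Plk1, Kif23 and Cenpa each hold TTTGAA shortly downstream of the start, at positions 31, 3 and 17 counted with the start base as 1, and at least 1 CCAAT. Of the other mitotic genes that fell in WT untreated skin against LN and have a promoter here, Cdc20, Ube2c and Cenpf hold both. Ccnb1 and Cenpe fell too and hold CCAAT without TTTGAA. A match to a few letters is a description of the sequence and not a bound site.

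One library has to be named before the results. LN replicate 3 held the mitotic genes at a median of 3.43 times the mean of LN replicates 1 and 2, and all 21 were above that mean. Its S-phase genes were at a median of 1.80 times, all 18 above, while the 4 G1 regulators were at 0.876 times and all tested genes at 0.997 times. Of the 15 libraries, it held the highest level of 19 of 21 mitotic and 14 of 18 S-phase genes. Markers of another cell type moved with it. The 14 B cell markers summed to 8.28 to 25.8 CPM in the 12 skin libraries, against 282, 243 and 918 CPM in LN replicates 1, 2 and 3. The B cell gene Ms4a1 was at 0.312 CPM or less in the skin libraries, against 35.2, 23.6 and 104 CPM in LN. The 9 germinal centre and plasma cell genes summed to 38.0, 40.9 and 72.3 CPM in LN replicates 1, 2 and 3. Most of that rise was the plasma cell gene Igj, at 5.40, 3.74 and 35.0 CPM. The 20 genes of macrophages, dendritic and Langerhans cells summed to 1027, 876 and 2856 CPM, and 9 T cell and Treg genes to 6965, 6878 and 5721 CPM. The list of 20 holds Cd74, H2-Aa, H2-Ab1 and H2-Eb1, which B cells express too. Its sum therefore does not separate those cells from B cells. What part any of these other cell types has in the cell cycle levels was not tested. The counts and the main genes against LN are therefore given with and without replicate 3.

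**Figure D1:**
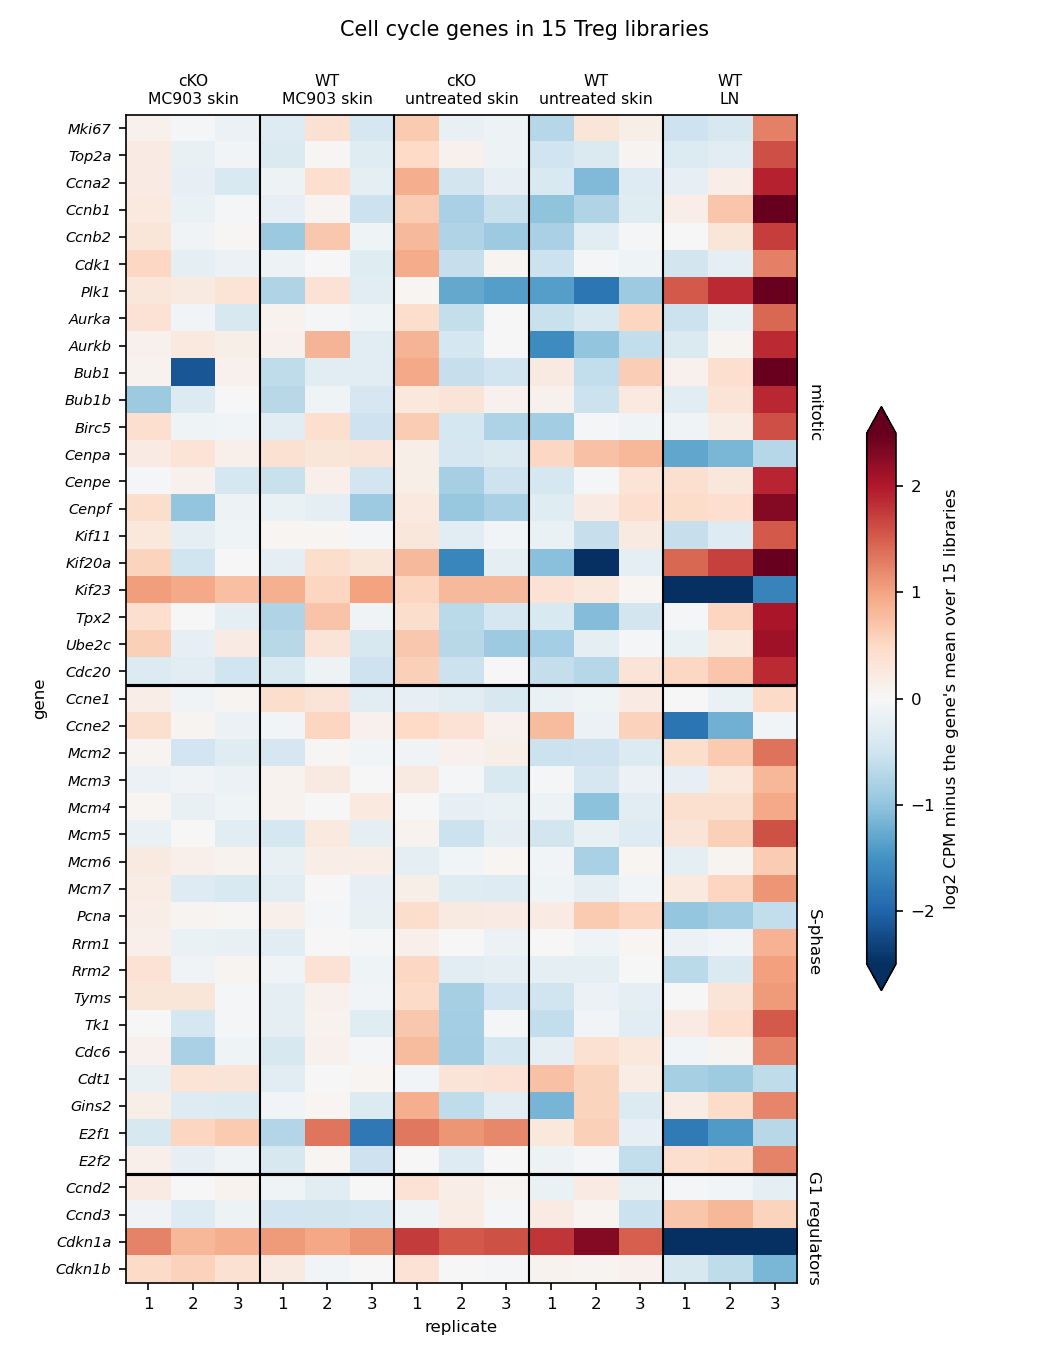
Level of each of the 43 genes (rows, by phase) in each of the 15 libraries (columns), as log2 CPM minus the gene's own mean over the libraries, with colours cut at 2.5 either way. LN replicate 3 is high in nearly all mitotic rows, replicate 1 of cKO untreated skin is the highest skin library in many of them, and Kif23, Cenpa and Cdkn1a are low in all 3 LN libraries.

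WT Tregs of untreated skin were first set against those of LN, which asks whether Tregs resident in skin carry the transcripts of dividing cells. Of the mitotic genes, 19 of 21 were lower in skin, or 14 of 21 without LN replicate 3, not all past the test. The marker Mki67 was not called, and a pair of mitotic genes ran strongly the other way. Of 21 mitotic genes, 10 fell, 2 rose and 9 were not called, where 28.8% of all tested genes rose and 28.8% fell (edgeR quasi-likelihood test, Benjamini-Hochberg adjusted p under 0.05, n = 3 per group). The median log2 change of the mitotic genes was -1.22, against 0.01 over all tested genes. With LN replicate 3 left out, the same 2 rose and 4 fell, all 4 of them among the 10. All genes then gave 26.3% higher and 24.5% lower, and the mitotic median was -0.32 against 0.09 over all genes. The count of mitotic genes that fell was 15 without LN replicate 1 and 12 without replicate 2.

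Of the 43 genes, 7 had every skin library above every LN library and 17 had every one below, against 30.1% and 33.4% of all tested genes. Plk1 encodes the kinase that drives entry into mitosis and spindle formation. It was at 1.70, 1.24 and 2.37 CPM in WT skin, against 13.3, 16.7 and 39.4 CPM in LN. All 3 skin libraries lay far below all 3 LN libraries, and the log2 change was -3.71 ± 0.51 (SE, adjusted p = 1.6e-05), or -3.06 ± 0.48 without LN replicate 3. Kif20a, a kinesin of cytokinesis, was at 2.84, 0.177 and 5.11 CPM in skin, against 16.3, 19.6 and 54.7 CPM in LN. Its groups did not overlap either, at -3.49 ± 0.87 (adjusted p = 0.00415) and -2.71 ± 0.85 without replicate 3. Its exons overlap those of Cdc23 on the other strand, and the library kit is not stated to keep the strand, so reads of the overlap could come from either gene.

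Ccnb1 encodes cyclin B1, the partner of the mitotic kinase. It was at 8.56, 10.2 and 13.9 CPM in skin, against 19.4, 28.1 and 100.4 CPM in LN, again with no overlap (-2.18 ± 0.54, adjusted p = 0.00343). Its change was -1.10 ± 0.36 without LN replicate 3 (adjusted p = 0.0189). Cdc20 activates the complex that degrades cyclin B, and it was at 12.1, 11.1 and 22.8 CPM in skin, against 26.2, 29.4 and 66.3 CPM in LN. These groups did not overlap (-1.41 ± 0.36, adjusted p = 0.0037), and the change was -0.84 ± 0.32 without replicate 3 (adjusted p = 0.0399).

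The next genes lost their call with that library. Aurkb, the kinase that corrects attachments of chromosomes to the spindle, was at 5.86, 8.75 and 11.4 CPM in skin, against 13.5, 18.5 and 63.7 CPM in LN. Its groups were apart, but its change was -1.88 ± 0.52 with all libraries (adjusted p = 0.00731) and -0.86 without replicate 3 (adjusted p = 0.0665). The others among the 10 were Tpx2, a spindle assembly factor (-1.74 ± 0.50), Ccna2, the cyclin of S and G2 phase (-1.52 ± 0.51), Ube2c, a ubiquitin-conjugating enzyme of mitotic exit (-1.45 ± 0.58), and the kinetochore genes Cenpf (-1.22 ± 0.50) and Cenpe (-1.08 ± 0.40). None of these 5 was called without LN replicate 3. Among the 9 not called with all libraries were Top2a, which untangles sister chromatids (-0.88), Cdk1, the mitotic kinase itself (-0.63), Birc5, the gene of survivin (-1.06), and the checkpoint genes Bub1 (-1.29) and Bub1b (-0.98).

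Mki67 was at 28.9, 58.5 and 52.3 CPM in WT skin, against 33.0, 35.6 and 112 CPM in LN. LN replicate 3 was the highest of the 6 and the other LN libraries lay among the skin libraries. The log2 change was -0.37 ± 0.43 (adjusted p = 0.478). Without LN replicate 3 it was 0.47 ± 0.31 (adjusted p = 0.221), with the sign turned and still no call.

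The 2 mitotic genes that rose did so with every LN library below every skin library. Kif23 encodes a kinesin of the central spindle that is needed to divide the cytoplasm. It was at 167, 156 and 134 CPM in WT skin, against 12.5, 15.8 and 40.3 CPM in LN, a log2 change of 2.73 ± 0.33 (6.65-fold, adjusted p = 8.0e-06). Leaving out replicate 3 gave a change of 3.45 ± 0.19. Cenpa encodes the histone H3 variant that marks centromeres, and it was at 212, 247 and 265 CPM in skin, against 60.3, 67.5 and 90.8 CPM in LN. Its log2 change was 1.73 ± 0.17 (3.31-fold, adjusted p = 5.1e-07), and 1.94 ± 0.17 without replicate 3. Kif23 and Plk1, which moved most in opposite directions, both belong to the machinery of cell division, and both promoters above hold TTTGAA and CCAAT.

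**Figure D2:**
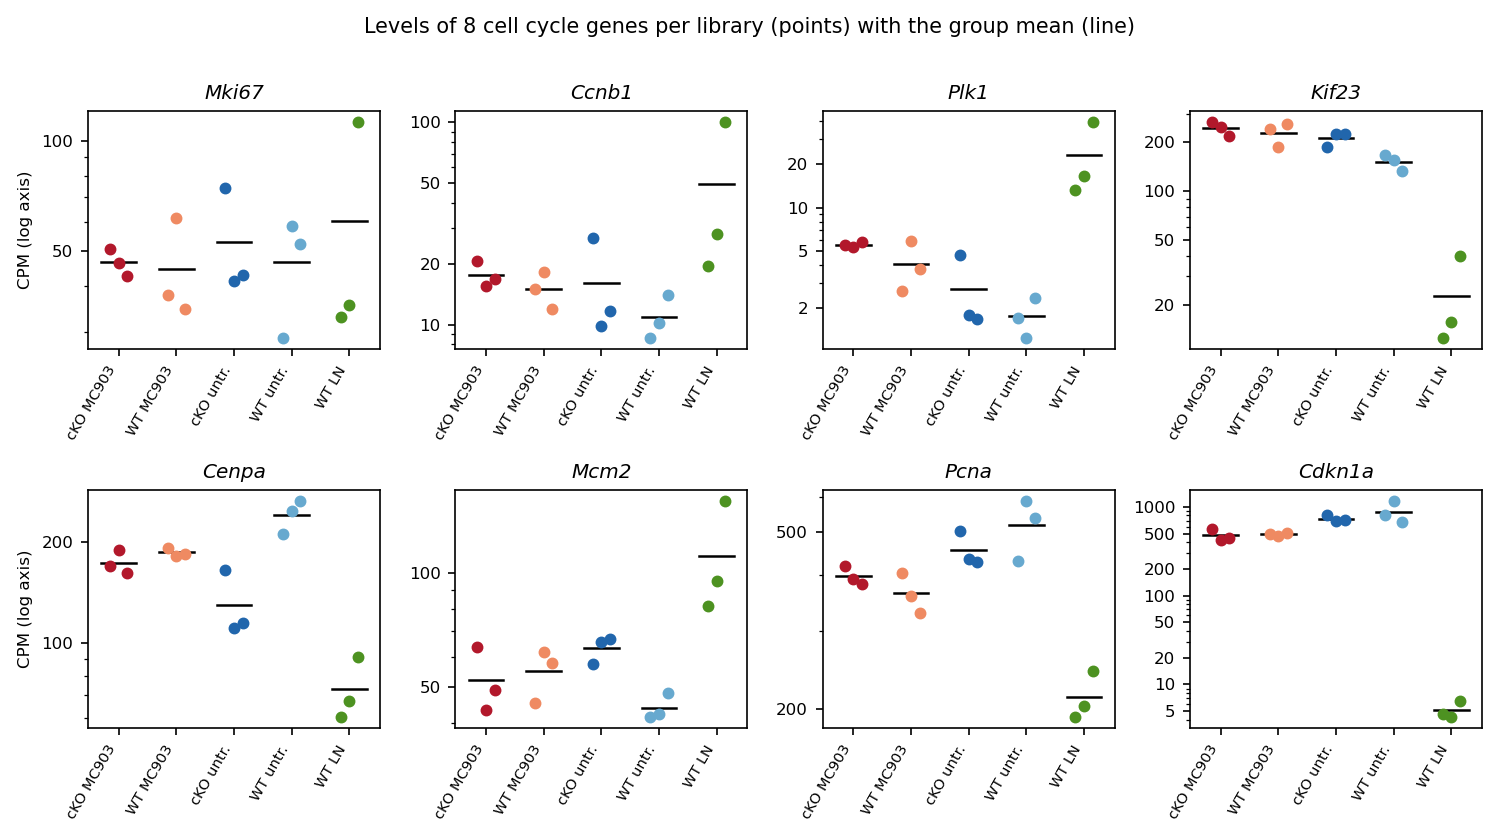
CPM of 8 cell cycle genes in each library (points, log axis) with the mean of each group of 3 (line). Plk1, Ccnb1 and Mcm2 are on average lowest in WT untreated skin and highest in LN, Kif23, Cenpa, Pcna and Cdkn1a are lowest in LN, and the Mki67 values of all groups overlap.

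Of 18 S-phase genes, 8 fell, 4 rose and 6 were not called in WT skin against LN, with a median log2 change of -0.50. Over all tested genes, 28.8% rose and 28.8% fell. With LN replicate 3 left out, 10 of the 18 were lower and 8 higher, called or not, and the median was -0.17. Called without it were 4 that rose (22.2%) and 5 that fell (27.8%). The shares of all tested genes were then 26.3% and 24.5%, so these S-phase counts were near the background. The helicase that unwinds DNA, made of Mcm2 to Mcm7, gave 5 of the 8 that fell. Mcm2 was at 41.6, 42.3 and 48.2 CPM in skin, against 81.9, 95.1 and 155 CPM in LN (-1.33 ± 0.21, adjusted p = 7.3e-05). Mcm4 was at 88.1, 47.2 and 79.0 CPM in skin, against 128, 127 and 187 CPM in LN (-1.05 ± 0.20, adjusted p = 3.4e-04). Mcm5 was at 51.0, 61.8 and 55.8 CPM in skin, against 87.1, 107 and 212 CPM in LN (-1.27 ± 0.28, adjusted p = 0.00113). In each of these helicase genes every skin library was below every LN library.

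Mcm7 was at 81.4, 74.1 and 83.3 CPM in skin, against 103, 127 and 189 CPM in LN (-0.81 ± 0.21, adjusted p = 0.00362). Its exons overlap those of Ap4m1 and Cops6 on the other strand. E2f2, an activating E2F, was at 19.7, 20.9 and 14.1 CPM in skin, against 28.9, 29.8 and 50.7 CPM in LN (-1.0 ± 0.24, adjusted p = 0.00225). Mcm2, Mcm4, Mcm5, Mcm7 and E2f2 stayed below LN without replicate 3, at -0.98, -0.81, -0.76, -0.50 and -0.66, and all 5 were called there. Mcm3 (-0.56 ± 0.21) and the nucleotide synthesis genes Tk1 (-1.16 ± 0.36) and Tyms (-0.82 ± 0.30) fell with all libraries and were not called without it. Mcm6 (-0.44) and the ribonucleotide reductase genes Rrm1 (-0.30) and Rrm2 (-0.34) did not pass the test.

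The 4 S-phase genes that rose were Pcna, Cdt1, Ccne2 and E2f1. Pcna encodes the clamp that holds DNA polymerase on its template and also serves in DNA repair. It was at 432, 588 and 539 CPM in WT skin, against 191, 203 and 243 CPM in LN (1.29 ± 0.14, 2.45-fold, adjusted p = 9.8e-07). Cdt1, which loads the helicase before replication, was at 76.4, 67.6 and 52.6 CPM in skin, against 25.8, 24.9 and 29.6 CPM in LN (1.29 ± 0.19, adjusted p = 2.5e-05). For both genes every skin library was clearly above every LN library.

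Ccne2 encodes cyclin E2, which acts at the entry into S phase. It was at 18.4, 9.51 and 15.8 CPM in skin, against 2.91, 4.57 and 10.1 CPM in LN, so that 1 skin library lay below 1 LN library (1.31 ± 0.38, adjusted p = 0.00775). Its exons overlap those of Ints8 on the other strand. E2f1 was at 7.52, 9.51 and 5.44 CPM in skin, against 1.78, 2.28 and 3.86 CPM in LN (1.5 ± 0.59, adjusted p = 0.0412). The E2f1 groups were apart, yet its call ended when any of 8 single libraries was left out (adjusted p 0.0513 to 0.134). Without LN replicate 3 all 4 were called, at 1.42 for Pcna, 1.40 for Cdt1, 1.98 for Ccne2 and 1.91 for E2f1. In the authors' deposited table of LN over skin, at an adjusted p under 0.05, 2 mitotic genes were higher in skin and 13 in LN. Likewise 4 S-phase genes were higher in skin and 8 in LN. That table comes from the same series, so it is not independent of the counts above. The share of all its genes that pass was not computed.

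**Figure D3:**
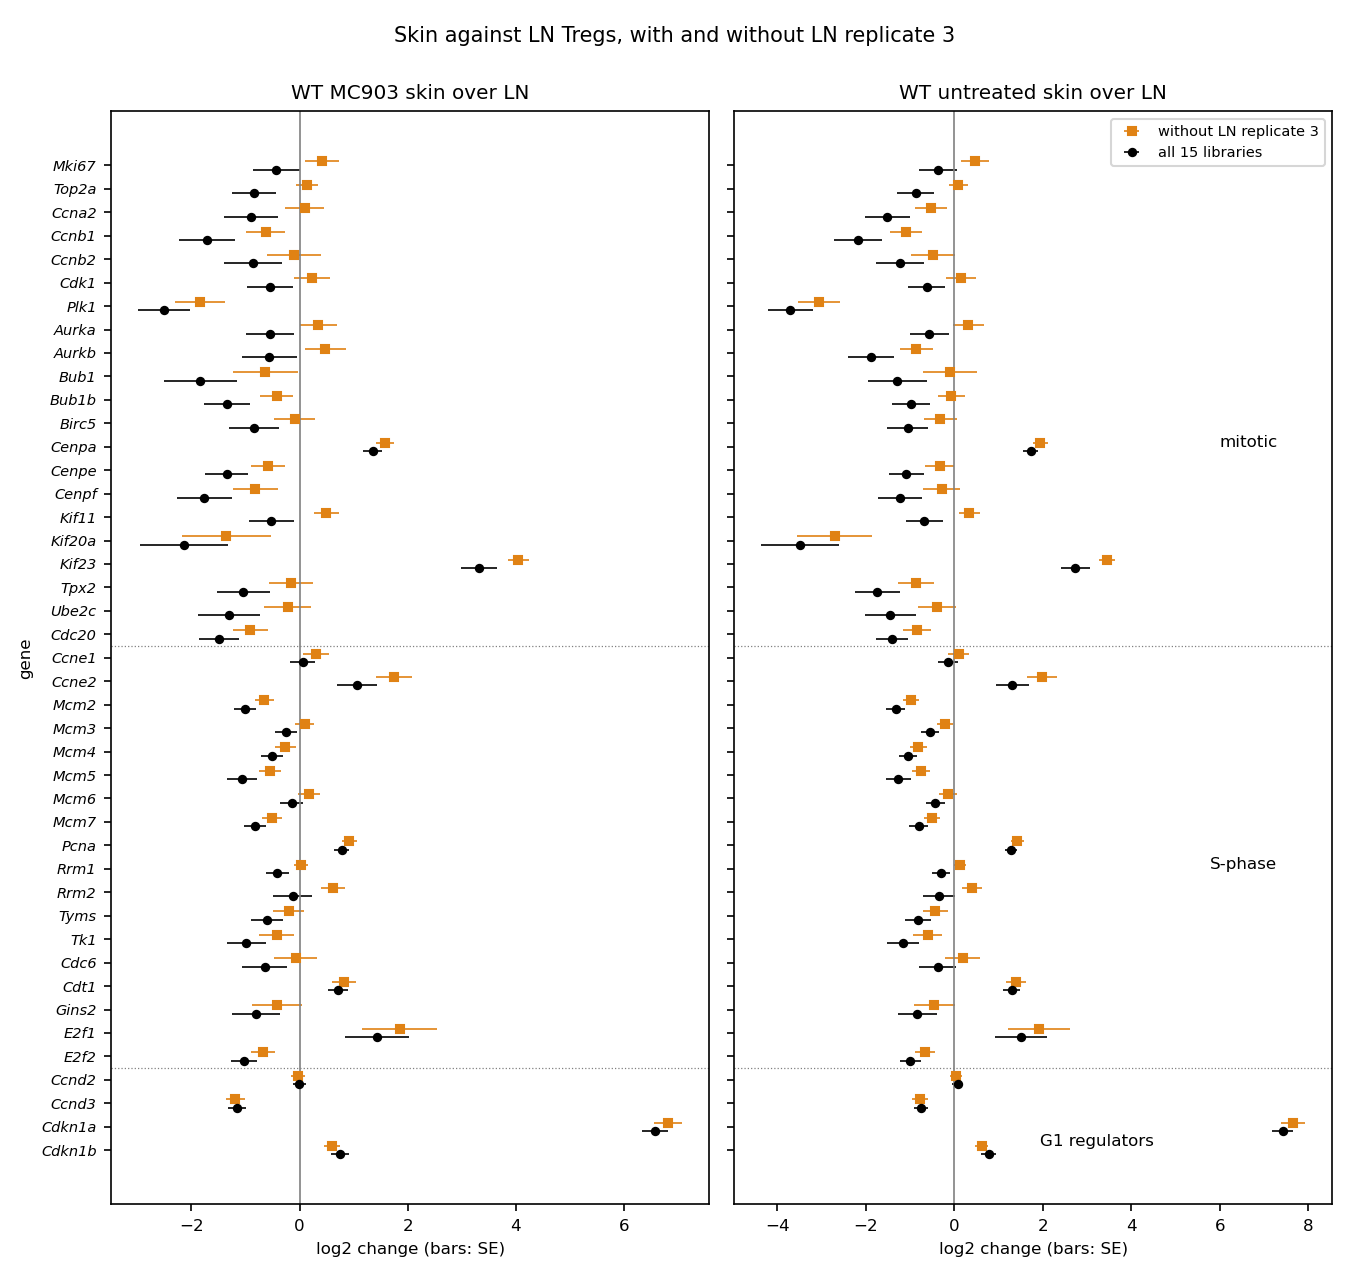
Log2 change of each gene in WT MC903 skin over LN (left) and in WT untreated skin over LN (right), with all 15 libraries (black circles) and without LN replicate 3 (orange squares), bars giving the SE. Leaving out replicate 3 moves nearly every mitotic gene to the right, and Kif23, Cenpa, Pcna, Cdt1 and Cdkn1a stay on the right of 0 and Plk1 on its left both times.

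The G1 regulators gave the widest difference. Cdkn1a encodes p21, an inhibitor of cyclin-dependent kinases that p53 and stress signals induce. It was at 816, 1165 and 672 CPM in WT skin, against 4.65, 4.28 and 6.56 CPM in LN. The lowest skin library stood far above the highest LN library, and the log2 change was 7.42 ± 0.25 (171-fold, adjusted p = 3.5e-12), or 7.65 ± 0.27 without LN replicate 3. Its exons, like those of Plk1, overlap an annotated gene on the other strand that is not in the count table. Cdkn1b encodes the related inhibitor p27, typical of resting T cells, and was at 65.7, 65.3 and 66.9 CPM in skin, against 47.2, 40.2 and 28.0 CPM in LN (0.78 ± 0.17, adjusted p = 0.00116).

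Ccnd3 encodes cyclin D3, which with CDK4 or CDK6 starts the passage out of G1. It was at 136, 123 and 80.7 CPM in skin, against 189, 207 and 173 CPM in LN (-0.75 ± 0.16, adjusted p = 9.0e-04). Its exons overlap those of Bysl on the other strand. Ccnd2, the gene of cyclin D2, was at 834, 1075 and 822 CPM in skin, against 908, 891 and 791 CPM in LN, with the groups mixed (0.08 ± 0.13, adjusted p = 0.627). The same 3 of these 4 genes were called in the same directions without LN replicate 3.

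Wider lists of the same pathways were counted beside the members, where 28.8% of all tested genes rose and 28.8% fell. Of 69 other mitotic genes, 3 rose and 33 fell in WT skin against LN, and 8 rose and 7 fell without LN replicate 3. With limma-voom, which weights the libraries, 7 rose and 8 fell. Pttg1, the gene of securin, rose (1.68 ± 0.18), as did Cks2 (1.61 ± 0.23), a subunit that binds cyclin-dependent kinases, and Lmnb1 (2.87 ± 0.40), the gene of the nuclear lamina protein lamin B1. Smc4 of the condensin complex fell (-1.79 ± 0.14), as did the spindle genes Ckap2l (-2.46 ± 0.48) and Dlgap5 (-2.39 ± 0.51). Of 55 other DNA replication genes, 2 rose and 33 fell, against 7 and 19 without replicate 3 and 7 and 27 with limma-voom. Slbp, which binds the ends of histone mRNA, rose (1.41 ± 0.12), and so did Dbf4, a subunit of the kinase that fires origins (1.23 ± 0.17). The fork protection gene Timeless (-2.17 ± 0.25) and the single-strand binding gene Rpa1 (-1.17 ± 0.14) fell.

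Of 32 other G1 regulators, 8 rose and 7 fell, or 12 and 4 without LN replicate 3 and 13 and 6 with limma-voom. With all libraries 28.8% of all tested genes rose and as many fell, so the counts of 8 and 7 were not above the background. The inhibitor genes Cdkn2b (3.62 ± 0.40) and Cdkn1c (2.87 ± 0.24) rose with Lin54 (2.38 ± 0.23), a MuvB subunit. Cdk4, the partner kinase of cyclin D, fell (-1.48 ± 0.17), as did Myc (-1.44 ± 0.19) and the RB family gene Rbl1 (-1.19 ± 0.19). Of 22 genes tied to quiescence, 12 rose and 4 fell, or 12 and 3 without LN replicate 3, with Klf4 (8.81 ± 0.55), Klf6 (3.39 ± 0.21) and the antiproliferative gene Tob1 (2.72 ± 0.16) among those that rose, and Pik3ip1 (-3.39 ± 0.28), Slfn2 (-1.64 ± 0.15) and Txnip (-0.66 ± 0.14) among those that fell. Of 25 tested p53 targets, 16 rose and 3 fell, with or without that library. The lists are not wholly separate, since Perp is also among the keratinocyte markers summed below and Btg2 is also among the quiescence genes. Pmaip1 (4.15 ± 0.18), Tnfrsf10b (3.73 ± 0.18) and Plk2 (3.79 ± 0.30) rose, and Sesn1 (-1.45 ± 0.14), Xpc (-1.40 ± 0.21) and Rrm2b (-1.09 ± 0.24) fell.

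WT Tregs of MC903-treated skin were set against the same 3 LN libraries, so this comparison is not independent of the one above. Of 21 mitotic genes, 8 fell, 2 rose and 11 were not called, where 26.5% of all tested genes rose and 24.5% fell, and the mitotic median was -0.90 against 0.02 over all genes. Without LN replicate 3, 2 rose and 2 fell, Plk1 and Cdc20, where 23.8% of all genes rose and 20.5% fell, and the mitotic median was -0.10 against 0.11 over all genes. Of 18 S-phase genes, 3 rose and 6 fell, or 5 rose and 4 fell without replicate 3. Plk1 was at 2.65, 5.87 and 3.73 CPM in WT MC903 skin, below each LN value given above (-2.5 ± 0.48, adjusted p = 4.7e-04), and changed by -1.84 ± 0.46 without LN replicate 3. Kif23 was at 240.2, 188 and 259.6 CPM (3.32 ± 0.34) and Cenpa at 193, 181 and 185 CPM (1.35 ± 0.17), all above LN. Their changes without that library were 4.05 ± 0.20 and 1.58 ± 0.16.

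Cenpe, a kinetochore motor, was at 8.52, 13.8 and 8.94 CPM in WT MC903 skin, against 16.7, 15.4 and 47.3 CPM in LN (-1.34 ± 0.40, adjusted p = 0.0107). Cenpf, another kinetochore gene, was at 8.75, 8.28 and 5.17 CPM, against 13.6, 13.1 and 48.6 CPM in LN (-1.76 ± 0.51, adjusted p = 0.00966). Their groups did not overlap. Of the 43 genes, 6 lay wholly above LN and 15 wholly below, against 30.4% and 32.5% of all tested genes. Without LN replicate 3 neither was called (adjusted p = 0.149 and 0.123). Ccnb1 fell (-1.71 ± 0.52) and lost its call the same way (adjusted p = 0.167), whereas Cdc20 fell with that library (-1.49 ± 0.36) and without it (-0.91 ± 0.32). Bub1 (-1.84 ± 0.68), Bub1b (-1.35 ± 0.42) and Kif20a (-2.14 ± 0.81) completed the 8, and none of these 3 was called without LN replicate 3 (adjusted p = 0.416, 0.271 and 0.198). The call of Cenpe also ended without replicate 1 of WT MC903 skin (adjusted p = 0.0514), and that of Ccnb1 without replicate 3 of WT MC903 skin (0.054) and under limma-voom (0.127).

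In S phase, Mcm2 (-1.01 ± 0.21), Mcm5 (-1.06 ± 0.27), Mcm7 (-0.83 ± 0.21), E2f2 (-1.03 ± 0.24), Mcm4 (-0.51 ± 0.20) and Tk1 (-0.99 ± 0.36) fell in MC903 skin against LN. With LN replicate 3 left out, Mcm2 (-0.65), Mcm5 (-0.54), Mcm7 (-0.51) and E2f2 (-0.68) were still called, and Mcm4 was not (-0.27 ± 0.20, adjusted p = 0.281). Tk1 encodes thymidine kinase and was at 16.1, 20.2 and 15.3 CPM, against 21.8, 25.4 and 55.0 CPM in LN, and its call ended without replicate 3 (adjusted p = 0.30). Pcna (0.78 ± 0.13), Cdt1 (0.71 ± 0.18) and Ccne2 (1.06 ± 0.37) rose, at 0.92, 0.82 and 1.74 without that library. The call of Ccne2 ended without replicate 2 of WT MC903 skin (adjusted p = 0.102) or without LN replicate 1 or 2 (0.116 and 0.103), and in a fit of WT MC903 skin and LN alone (0.0629). That of Tk1 ended without replicate 1 or 3 of WT MC903 skin (0.0955 and 0.0892), with limma-voom (0.0794) and with the replicate number as a block (0.0532). Cdkn1a was at 499.7, 467 and 509 CPM, far above each LN library (6.57 ± 0.24), Cdkn1b was at 73.2, 59.0 and 61.8 CPM (0.75 ± 0.17), Ccnd3 was at 84.1, 85.2 and 86.2 CPM (-1.16 ± 0.16), and Ccnd2 at 870.1, 785 and 934 CPM passed no test (SE of the log2 change 0.13, adjusted p = 0.996). The first 3 of these were called without LN replicate 3 too, at 6.82, 0.60 and -1.18. Mki67 was at 37.8, 61.5 and 34.7 CPM and again passed no test (-0.43 ± 0.43, adjusted p = 0.425, and 0.42 ± 0.31, adjusted p = 0.287, without LN replicate 3).

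The wider lists were counted where 26.5% of all tested genes rose and 24.5% fell. In them, 5 other mitotic genes rose and 12 fell of 69, 3 other DNA replication genes rose and 22 fell of 55, 7 other G1 regulators rose and 5 fell of 32, 8 quiescence genes rose and 5 fell of 22, and 15 p53 targets rose and 4 fell of 25. Without LN replicate 3 the counts that rose and fell were 8 and 3, 6 and 16, 9 and 4, 8 and 5, and 15 and 5. With limma-voom 9 other mitotic genes rose and 9 fell, 6 other DNA replication genes rose and 23 fell, and 11 other G1 regulators rose and 5 fell. Among mitotic genes Cks2 (1.76 ± 0.23), Lmnb1 (2.52 ± 0.40) and Pttg1 (0.89 ± 0.18) rose, and Smc4 (-1.66 ± 0.14), Sgol2, a protector of centromere cohesion (-2.60 ± 0.66), and Ckap5, a microtubule polymerase gene (-0.72 ± 0.19), fell. In DNA replication Slbp (1.26 ± 0.12), Dbf4 (1.5 ± 0.17) and Rfc3 (0.61 ± 0.19) rose, and Timeless (-2.40 ± 0.25) fell with the clamp loader genes Rfc1 (-1.69 ± 0.17) and Rfc2 (-0.93 ± 0.14). The inhibitor genes Cdkn1c (4.69 ± 0.26) and Cdkn2b (3.23 ± 0.39) rose with Lin54 (1.92 ± 0.23), and Cdk4 (-1.33 ± 0.17), Rbl1 (-1.26 ± 0.19) and the repressive E2F gene E2f6 (-0.77 ± 0.23) fell. Tob1 (1.76 ± 0.16), Klf4 (6.46 ± 0.52) and Klf6 (1.92 ± 0.20) rose, and Pik3ip1 (-3.85 ± 0.29), Txnip (-1.19 ± 0.14) and Slfn2 (-0.79 ± 0.15) fell. Of the p53 targets, Pmaip1 (4.28 ± 0.18), Tnfrsf10b (2.75 ± 0.17) and Gadd45a (1.92 ± 0.17) rose, and Sesn1 (-1.38 ± 0.14), Xpc (-1.37 ± 0.21) and Rrm2b (-1.0 ± 0.24) fell.

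MC903-treated skin was then set against untreated skin, which asks whether Tregs of inflamed skin take up division. Few of the 43 genes were called, and Mki67 was not among them. In WT, no gene rose and 2 fell, Pcna and Cdkn1a, where 5.03% of all tested genes rose and 5.44% fell. In cKO, no gene rose and Cdkn1a alone fell, where 5.96% of all genes rose and 5.3% fell. At an unadjusted p under 0.05 there were 8 of the 43 in WT and 3 in cKO, and DESeq2 called 4 in WT and 1 in cKO. Averaged over both genotypes, 1 of 21 mitotic genes rose and none fell, no S-phase gene of 18 rose and 1 fell, and 1 of the 4 G1 regulators fell, where 12.8% of all genes rose and 12.3% fell. The median averaged change was 0.08 for mitotic genes, -0.0006 for S-phase genes and 0.01 for all genes.

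Mki67 was at 50.5, 46.4 and 42.7 CPM in cKO MC903 skin, against 74.1, 41.5 and 42.96 CPM in cKO untreated skin. The WT values of both treatments, given above, overlapped likewise. Its log2 change with MC903 was -0.06 ± 0.43 in WT (adjusted p = 0.958), -0.18 ± 0.43 in cKO (adjusted p = 0.837) and -0.12 ± 0.31 averaged (adjusted p = 0.816).

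Plk1 rose when both genotypes were averaged (1.12 ± 0.34, adjusted p = 0.0231). It was at 5.49, 5.33 and 5.77 CPM in cKO MC903 skin, against 4.66, 1.81 and 1.68 CPM in cKO untreated skin. In WT it was at 2.65, 5.87 and 3.73 CPM in MC903 skin, against 1.70, 1.24 and 2.37 CPM in untreated skin. Every MC903 library was above every untreated library of its genotype. Such a gap was present in cKO for 4 of the 43 genes above and 4 below, against 17.4% and 16% of all tested genes, and in WT for 6 above and 4 below, against 15% and 13.2%. Within a genotype the change passed no test (1.03 ± 0.47, adjusted p = 0.171 in cKO, and 1.21 ± 0.48, adjusted p = 0.123 in WT). The averaged call ended without replicate 2 of WT MC903 skin (adjusted p = 0.0608), replicate 2 or 3 of cKO untreated skin (0.0587 and 0.0601) or replicate 2 of WT untreated skin (0.0528), and under limma-voom (0.0756). Even after this rise Plk1 stayed well below the LN libraries.

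Aurkb in WT was at 18.8, 31.6 and 14.6 CPM in MC903 skin, against 5.86, 8.75 and 11.4 CPM in untreated skin, with no overlap (1.33 ± 0.52, adjusted p = 0.123). In cKO it was at 18.9, 20.8 and 19.3 CPM in MC903 skin, against 31.6, 12.9 and 17.5 CPM in untreated skin, where the groups overlapped (-0.07 ± 0.50). With LN replicate 3 left out, which enters this comparison only through the shared filter, scaling and estimate of spread, Aurkb (adjusted p = 0.0227) and Kif23 (0.60, adjusted p = 0.0172) were called in WT. Kif23 was at 267, 249.6 and 219 CPM in cKO MC903 skin, against 188, 226 and 226 CPM in cKO untreated skin.

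Pcna fell in WT MC903 skin, at 405, 359 and 329 CPM against 432, 588 and 539 CPM in WT untreated skin (-0.51 ± 0.13, adjusted p = 0.0236). In cKO it was at 420.1, 392 and 382 CPM in MC903 skin, against 504, 436 and 429.5 CPM in untreated skin (-0.20 ± 0.13, adjusted p = 0.373). Both genotypes had every MC903 library below every untreated one, and the averaged change was -0.35 ± 0.09 (adjusted p = 0.0125). The WT call ended without replicate 2 or 3 of either WT skin group (adjusted p 0.0574 to 0.0991) and in a fit of the 2 WT skin groups alone (0.0922). Cdt1 in WT was at 37.8, 46.3 and 47.3 CPM in MC903 skin, against 76.4, 67.6 and 52.6 CPM in untreated skin, and its change of -0.58 ± 0.18 missed the threshold (adjusted p = 0.0543).

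E2f1 in cKO was at 4.71, 9.16 and 9.97 CPM in MC903 skin, against 15.8, 13.5 and 14.4 CPM in untreated skin, with the groups apart and no call (-0.88 ± 0.58, adjusted p = 0.356). In WT MC903 skin E2f1 was at 3.74, 15.97 and 1.75 CPM, a spread that covers every other skin library. Ccne1, the gene of cyclin E1, was at 13.5, 11.3 and 12.6 CPM in cKO MC903 skin, against 10.5, 9.87 and 9.02 CPM in cKO untreated skin (0.35 ± 0.24, adjusted p = 0.364). No Mcm gene passed a test with MC903, and the helicase gene with the smallest p in WT was Mcm4 (0.54 ± 0.20, adjusted p = 0.0953).

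Cdkn1a fell in both genotypes. In cKO it was at 564, 422 and 449 CPM in MC903 skin, against 798, 690.0 and 716 CPM in untreated skin (-0.62 ± 0.18, adjusted p = 0.0416). In WT it was at 499.7, 467 and 509 CPM in MC903 skin, against 816, 1165 and 672 CPM in untreated skin (-0.85 ± 0.19, adjusted p = 0.00943). Every MC903 library was below every untreated library, and the averaged change was -0.73 ± 0.13 (1.66-fold lower, adjusted p = 8.9e-04). The cKO call alone ended without any of 7 single libraries (adjusted p 0.0509 to 0.162) and with the replicate number as a block (0.0624). Cdkn1b was at 86.4, 92.3 and 80.6 CPM in cKO MC903 skin, against 80.2, 62.6 and 61.3 CPM in cKO untreated skin (0.35 ± 0.17, adjusted p = 0.206). Ccnd3 (-0.31 ± 0.11, adjusted p = 0.0574) and Ccnd2 (-0.09 ± 0.09, adjusted p = 0.522) did not pass the averaged test.

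Replicate 1 of cKO untreated skin stood above the other skin libraries in mitotic transcripts, with a median of 0.60 log2 units over each gene's mean. Its macrophage, dendritic and Langerhans cell genes summed to 2209 CPM, against 631 to 1745 CPM in the other skin libraries, and what part those cells have in it was not tested. Without it, 19 of 21 mitotic genes were higher with MC903 in cKO, against 11 with it, and their median was 0.37 against 0.12. The library was singled out for high mitotic levels and is untreated. Leaving it out was bound to raise these changes, so the shift is not a test of MC903. Plk1 (1.66, adjusted p = 0.0355), Cenpa (0.62, adjusted p = 0.02) and the S-phase gene Tyms (0.84, adjusted p = 0.0486) were then called in cKO, and Cdkn1a was not (adjusted p = 0.0886). With both that library and LN replicate 3 left out, an alternative added after the data were seen, the averaged comparison called 9 of the 43 genes. Over all tested genes it then called 1962 higher and 1760 lower, against 1744 (12.8%) and 1668 (12.3%) with all libraries. Plk1, Aurkb, Ccnb1, Kif23 and Tyms were higher with MC903, and Pcna, Cdt1, Cdkn1a and Ccnd3 were lower.

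In the wider lists, averaged over genotypes, 2 other mitotic genes rose and 2 fell of 69, and 6 other DNA replication genes rose and 3 fell of 55. Of 32 other G1 regulators, 4 rose and 4 fell. Of all tested genes 12.8% rose and 12.3% fell, so these counts were at or below the background. Cdc25b, the phosphatase that activates mitotic kinases, rose (0.71 ± 0.16) with the chromatin gene Hmgb2 (0.51 ± 0.13), and Pttg1 (-0.48 ± 0.13) and the microtubule gene Stmn1 (-0.66 ± 0.23) fell. Rpa1 (0.57 ± 0.10), the polymerase gene Pold3 (0.32 ± 0.09) and the origin gene Gins1 (1.27 ± 0.38) rose, and Rfc1 (-0.50 ± 0.12), the maintenance methyltransferase gene Dnmt1 (-0.52 ± 0.14) and the origin recognition gene Orc6 (-0.45 ± 0.14) fell. In the WT comparison the mismatch repair gene Msh6 was called too (0.56 ± 0.17, adjusted p = 0.0451). Cdkn1c, the gene of the inhibitor p57, was at 94.6, 113 and 66.7 CPM in cKO MC903 skin, against 23.7, 24.7 and 33.5 CPM in cKO untreated skin. In WT it was at 66.7, 59.3 and 76.5 CPM in MC903 skin, against 17.3, 23.9 and 16.2 CPM in untreated skin. It rose by an averaged log2 change of 1.78 ± 0.16 (adjusted p = 1.9e-06), opposite in sign to its relative Cdkn1a. Max, the partner of Myc, also rose (1.30 ± 0.19), as did Cdk2, the partner of cyclin E (0.29 ± 0.09). Myc itself rose in WT (0.92 ± 0.19). The inhibitor gene Cdkn2c (-0.52 ± 0.14), E2f5 (-0.54 ± 0.18) and Rb1, the retinoblastoma gene (-0.76 ± 0.26), fell.

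Of the 22 quiescence genes, 2 rose and 12 fell with MC903, where 12.8% of all tested genes rose and 12.3% fell. Klf6 (-1.29 ± 0.14), Tsc22d3 (-1.15 ± 0.12), a glucocorticoid-induced gene, and Tob1 (-0.95 ± 0.11) fell, and Slfn2 (0.68 ± 0.10), which keeps mouse T cells quiescent, and Ccng2 (0.47 ± 0.09) rose. Of 25 p53 targets, 3 rose, Dcxr (1.04 ± 0.18), the cell death gene Bax (0.28 ± 0.09) and Mdm2 (0.27 ± 0.09), which restrains p53, and 4 fell, among them Tnfrsf10b (-0.89 ± 0.11), Plk3 (-1.34 ± 0.19) and Plk2 (-0.87 ± 0.19).

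**Figure D4:**
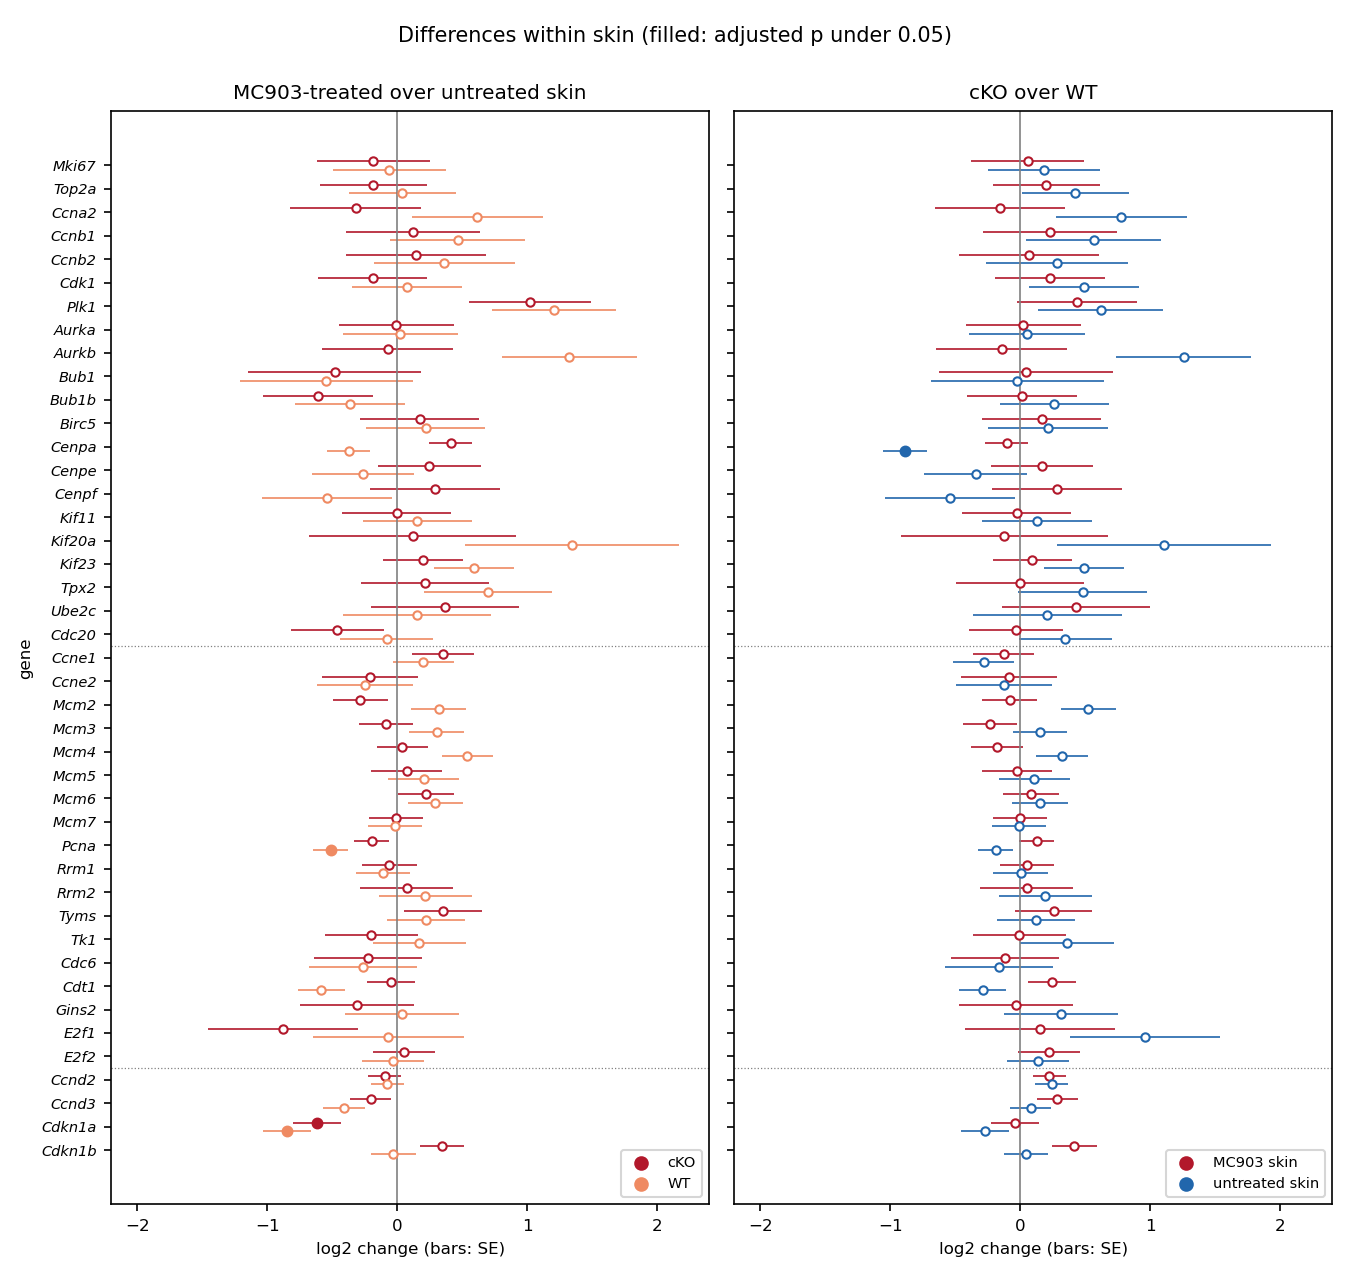
Log2 change of each gene with MC903 in cKO and WT (left) and in cKO over WT in MC903 and untreated skin (right), with SE bars and filled points where the adjusted p was under 0.05. The filled points are Cdkn1a in both genotypes and Pcna in WT on the left, and Cenpa in untreated skin on the right.

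The last comparisons set cKO against WT Tregs of the same treatment, which asks what Rora does in these cells. In untreated skin 1 of 21 mitotic genes fell and no S-phase gene or G1 regulator was called, where 0.398% of all tested genes rose and 0.405% fell. At an unadjusted p under 0.05 there were 3 of the 43, and DESeq2 called 1. Cenpa was at 165, 111 and 115 CPM in cKO, against 212, 247 and 265 CPM in WT, and no cKO library reached the lowest WT library (-0.89 ± 0.17, adjusted p = 0.0156). The call ended without replicate 2 or 3 of cKO untreated skin (adjusted p = 0.0905 and 0.102) or replicate 2 or 3 of WT untreated skin (0.0507 and 0.0729), and in a fit of the 2 untreated skin groups alone (0.0831). The other mitotic genes mostly leaned the other way, 17 of 21 being higher in cKO with a median of 0.28. Without replicate 1 of cKO untreated skin 8 of 21 were higher and the median was -0.01. That library was singled out for its high mitotic levels, so leaving it out was bound to lower these changes.

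Among S-phase genes, Mcm2 was at 57.3, 65.7 and 66.8 CPM in cKO untreated skin, against 41.6, 42.3 and 48.2 CPM in WT, with the groups apart and no call (0.52 ± 0.21, adjusted p = 0.348). Of the 43 genes, 4 lay wholly above WT and 2 wholly below, against 7.37% and 6.22% of all tested genes. E2f1 was at 15.8, 13.5 and 14.4 CPM in cKO, against 7.52, 9.51 and 5.44 CPM in WT, also apart and not called (0.96 ± 0.58, adjusted p = 0.567). Aurkb was higher in each cKO library than in each WT library (1.26 ± 0.52, adjusted p = 0.368). Mki67 (0.18 ± 0.43, adjusted p = 0.925), Cdkn1a (-0.27 ± 0.18, adjusted p = 0.616), Cdkn1b (0.04 ± 0.17), Ccnd3 (0.08 ± 0.16) and Ccnd2 (0.24 ± 0.13) passed no test.

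In MC903 skin none of the 43 genes was called by edgeR or DESeq2, where 0.081% of all tested genes rose and 0.177% fell in cKO, and 1 member, Cdkn1b, had an unadjusted p under 0.05. Cdkn1b was at 86.4, 92.3 and 80.6 CPM in cKO, against 73.2, 59.0 and 61.8 CPM in WT, with the groups apart (0.42 ± 0.17, adjusted p = 0.628). Of the 43 genes, 3 lay wholly above WT and 1 wholly below, against 7.81% and 8.19% of all tested genes. The smallest p among mitotic genes were those of Plk1 (0.44 ± 0.46) and Ube2c, which was at 32.8, 18.8 and 25.0 CPM in cKO, against 13.4, 27.2 and 16.4 CPM in WT, with overlap (0.43 ± 0.57). Among S-phase genes they were those of Cdt1, at 40.2, 58.2 and 57.2 CPM in cKO against 37.8, 46.3 and 47.3 CPM in WT (0.24 ± 0.18), and Mcm3, at 90.6, 94.5 and 91.7 CPM in cKO against 107, 117 and 102 CPM in WT (-0.24 ± 0.21). Mki67 was at 50.5, 46.4 and 42.7 CPM in cKO, against 37.8, 61.5 and 34.7 CPM in WT (0.06 ± 0.43). Cdkn1a (-0.04 ± 0.18), Ccnd3 (0.29 ± 0.16) and Ccnd2 (0.22 ± 0.13) passed no test either.

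Averaged over both treatments, Cenpa was the only one of the 43 genes called (-0.50 ± 0.12, adjusted p = 0.0437), where 0.884% of all genes rose and 0.862% fell. That call ended without any of 11 single libraries (adjusted p 0.0571 to 0.123) and with the replicate number as a block (0.0796), so it sits at the edge of the threshold. In MC903 skin Cenpa was at 170.0, 189 and 161 CPM in cKO, against 193, 181 and 185 CPM in WT, where the groups overlapped. The genotype by MC903 interaction of Cenpa was 0.79 ± 0.24 in edgeR (adjusted p = 0.866), so a different response of the genotypes was not shown. No gene of the whole table was called in the interaction by edgeR, with 765 at an unadjusted p under 0.05. DESeq2 called 21 genes and limma-voom 0. None of the 43 was among those calls, and Cenpa was the only one of them with an unadjusted p under 0.05 in edgeR.

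A related gene that is not among the 43 changed with genotype more clearly. Rbl2 encodes p130, the member of the RB family that represses cell cycle genes in resting cells. It was at 42.6, 38.3 and 39.4 CPM in cKO MC903 skin, against 109.8, 102 and 154 CPM in WT MC903 skin (-1.60 ± 0.19, adjusted p = 8.8e-04). In untreated skin it was at 44.3, 64.0 and 41.1 CPM in cKO, against 115, 85.4 and 97.8 CPM in WT (-1.0 ± 0.19, adjusted p = 0.0169). Every cKO library was below every WT library, and the averaged change was -1.30 ± 0.14 (adjusted p = 5.6e-05). It was the only one of the 32 other G1 regulators called in any of these comparisons. Of the 22 quiescence genes Runx1 fell in untreated skin (-0.88 ± 0.16, adjusted p = 0.00996) and on average (-0.71 ± 0.11), and Slfn2 rose on average (0.45 ± 0.10, adjusted p = 0.0391). Of the 69 other mitotic genes, the 55 other DNA replication genes and the 25 p53 targets, edgeR and limma-voom called 0 on average over treatments, and 2, 1 and 0 had an unadjusted p under 0.05 in edgeR. DESeq2 called 1 of the other mitotic genes and 0 of the others there. Within each treatment edgeR, DESeq2 and limma-voom called 0 of these 3 lists, with 3, 2 and 1 genes at an unadjusted p under 0.05 in edgeR in untreated skin and 1, 0 and 1 in MC903 skin.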

How the data were processed

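RNA of sorted Tregs was made into SMART-Seq v4 libraries and read as 75 bp single ends, per the labels' protocols. The authors aligned reads with TopHat2 2.0.6 to mm9 and used DESeq2, per the submitters' processing notes, and deposited unnormalized counts per gene. The gene counter and annotation are not given in the sources used here. Per the file headers, the authors' deposited table of LN over skin holds the log2 fold change, its SE, a score (their ratio), p-values and the mean signal over libraries, scaled counts. It was used for its direction and adjusted p only.

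Counts were fitted in edgeR 4.0.16 (R 4.3.3) as 1 robust quasi-likelihood model of 5 groups, with filterByExpr, TMM scaling and Benjamini-Hochberg adjustment over all 13578 tested genes. The scripts were tested on simulated data with known changes. CPM are counts divided by the TMM-scaled library size, as edgeR gives them, and ± is the SE of a log2 change. That SE was derived as the absolute log2 change over the square root of the F statistic of the quasi-likelihood test. Total counts ran from 19.8 to 27.7 M, and the biological coefficient of variation was 37.2%. Same-numbered libraries did not deviate together, so replicate number is not in the model. Alternatives were other scaling and filters, DESeq2 1.42.0, limma-voom (limma 3.58.1), fits of only the compared groups, a replicate block and leaving out each library.

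The 43 genes and the wider lists were chosen with earlier results of these data known. Named from the 43 were Mki67, the G1 regulators and, per comparison, phase and direction, up to 5 called genes ranked by adjusted p, or the top 2 by p where none was called. From each wider list up to 3 called genes per direction were named. One gene that this rule names is not reported here. Reads were counted per gene without a stated strand rule. Exons of 12 of the 43 genes overlap an annotated gene on the other strand. For 10 that gene is in the count table (Ccna2, Ccnd2, Ccnd3, Ccne2, Cdc20, Gins2, Kif20a, Mcm7, Tk1 and Ube2c), and for Cdkn1a and Plk1 it is not. These counts are less certain, and Tyms, Ccnd3, Ccnb1, Ccnb2 and Pcna have annotated pseudogenes, so theirs are too.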

Additional observations from a re-analysis of the deposited data

How the results depend on the processing

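Signs were compared across the alternatives for those of the 43 genes picked by p-value rank, and for the G1 regulators where called. None of these log2 changes was reversed. The signs of other genes named here, those of the wider lists among them, were not compared in this way. Of the 43 genes, 27 were called in WT untreated skin against LN and 17 with limma-voom, with 18 to 32 when 1 library was left out, lowest without LN replicate 3. Ccnb1 and Aurkb lost their calls there with limma-voom (adjusted p = 0.0921 and 0.152). In WT MC903 skin against LN 22 were called, and 16 to 26 with 1 library out. With MC903 in WT 2 were called, against 4 with DESeq2, 1 with only the compared groups in the fit, 7 without LN replicate 3 and cKO untreated replicate 1 together, and 1 to 4 with 1 library out. With MC903 in cKO 1 was called, against 0 with the replicate block, 2 with limma-voom, 4 without both those libraries, and 0 to 3 with 1 out. Averaged over genotypes 3 were called, 9 without both libraries, and 2 to 5 with 1 out, highest without replicate 1 of cKO or replicate 3 of WT untreated skin. Between genotypes in untreated skin 1 was called, 0 with only the compared groups, and 0 to 1 with 1 out. Averaged over treatments 1 was called, 0 with the replicate block, and 0 to 1 with 1 out. Without both libraries, the averaged MC903 comparison called 1962 of all tested genes higher and 1760 lower. Those counts were 831 and 851 with MC903 in WT, and 1152 and 926 in cKO. The cause of these shifts was not tested.

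Same-numbered libraries of different groups did not deviate together (30 pairs, correlation -0.277 to 0.223, against -0.146 to 0.224 in 60 other pairs). With 3 libraries a group, this cannot exclude that the numbers pair samples. Over all tested genes, the counts higher and lower were 683 and 738 with MC903 in WT, against 218 and 323 with only the compared groups and 1120 lower with DESeq2. With MC903 in cKO they were 809 and 720, against 1364 and 1278 with limma-voom and 1124 lower with DESeq2. Between genotypes they were 54 and 55 in untreated skin, against 192 and 152 with DESeq2 and 26 lower with only the compared groups. In MC903 skin they were 11 and 24, against 69 and 82 with DESeq2, 50 and 54 with limma-voom, and 26 and 37 without both libraries. Averaged over treatments they were 120 and 117, against 278 and 207 with DESeq2. With 3 libraries a group, the median SE of a log2 change was 0.37 within skin, which limits the changes these libraries can show.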

Other observations

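Marker genes of other cells were summed per library as CPM and are given as ranges over the 3 libraries of a group. The 14 B cell genes gave 14.2 to 25.8 in cKO MC903 skin, 15.9 to 17.3 in WT MC903 skin, 8.28 to 12.7 in cKO untreated skin, 8.51 to 13.4 in WT untreated skin and 243 to 918 in LN. The 9 germinal centre and plasma cell genes gave 49.6 to 64.3 in cKO MC903 skin, 46.2 to 68.7 in WT MC903 skin, 52.2 to 56.3 in cKO untreated skin, 45.2 to 57.5 in WT untreated skin and 38.0 to 72.3 in LN. The 20 macrophage, dendritic and Langerhans cell genes gave 938 to 1205 in cKO MC903 skin, 631 to 841 in WT MC903 skin, 1032 to 2209 in cKO untreated skin, 891 to 1745 in WT untreated skin and 876 to 2856 in LN.

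Keratinocyte genes (16 genes) gave 48.4 to 212 in cKO MC903 skin, 102 to 443 in WT MC903 skin, 231 to 434 in cKO untreated skin, 296 to 664 in WT untreated skin and 36.1 to 76.4 in LN. Fibroblast and endothelial genes (15 genes) gave 192 to 524 in cKO MC903 skin, 149 to 416 in WT MC903 skin, 49.4 to 222 in cKO untreated skin, 101 to 192 in WT untreated skin and 116 to 157 in LN. Mast cell, basophil and granulocyte genes (12 genes) gave 22.7 to 52.8 in cKO MC903 skin, 14.2 to 47.2 in WT MC903 skin, 11.1 to 18.9 in cKO untreated skin, 19.4 to 26.1 in WT untreated skin and 2.73 to 4.21 in LN. Genes of innate lymphoid, NK, CD8 and gamma-delta T cells (10 genes) gave 22.7 to 33.3 in cKO MC903 skin, 15.2 to 23.0 in WT MC903 skin, 30.7 to 42.4 in cKO untreated skin, 15.9 to 21.9 in WT untreated skin and 46.3 to 67.8 in LN. The 9 T cell and Treg genes gave at least 7456 in every skin library and 5721 to 6965 in LN.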
